A study of Homo sapiens with 4 samples.

Results

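The nucleolar ribosome assembly factors examined here are 40 genes for nucleolar proteins, core proteins of small nucleolar ribonucleoprotein particles (snoRNPs) and pre-ribosome assembly factors. They were found by their gene symbol among the 22361 rows of the deposited expression table, and each of the 40 symbols matched 1 row. RNA was measured in Jurkat cells, a human line from a T-cell acute lymphoblastic leukaemia, 72 h after infection with a lentivirus encoding a short hairpin RNA (shRNA). The shRNA was directed at the long non-coding RNA ARIEL in 2 libraries and at GFP in 2 control libraries. All 4 libraries came from the same cell line, infected with a lentivirus and selected with puromycin. The control carries its own shRNA, so no library represents uninfected cells. The comparison asks which RNAs differ when ARIEL is depleted. Nothing in the labels says that the 2 replicates of a group came from separate cultures, so the tests reflect the spread between these 4 libraries alone, which may be technical.

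Ribosomes are assembled in the nucleolus, where RNA polymerase I transcribes the long pre-ribosomal RNA. Box C/D snoRNPs guide ribose methylation of that RNA and box H/ACA snoRNPs guide its pseudouridylation, while successive assembly factors fold and cut it into the small (40S) and large (60S) subunits. Many genes of this machinery are known targets of the transcription factor MYC, which binds the E-box CACGTG, and growing leukaemia cells depend on a high output of ribosomes.

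The CACGTG letters stand near the starts of many members whose RNA is described here, among them members that rose, fell or were not called. Windows from 250 bases before to 50 bases after the first listed start were available from RefSeq (GRCh38.p14, a different build from the hg19 named for the deposited table) for 32 of the 40 members. Of these, 14 (43.8%) held CACGTG, against 10.2% of the 9685 tested genes with such a window. CACGTG reads the same on both strands. Among members with a window it was present in 9 of 19 that rose, 1 of 3 that fell and 4 of 10 that were not called in this fit. CAGATG, the E-box preferred by TAL1, was searched on both strands and was present in 1 of the 32 members' windows (3.12%) and in 9.54% of all windows. A match describes the letters in the window and does not show binding. The 30-base stretches around the first CACGTG (in capitals, 5′ to 3′ on the gene's strand) are shown for 6 members that rose, for BYSL, which fell, and for NOP10, whose difference did not pass the test, to set members of unlike direction side by side.
RRP9, which rose (chr3:51941892-51941921, minus strand): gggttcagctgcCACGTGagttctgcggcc
PES1, which rose (chr22:30591880-30591909, minus strand): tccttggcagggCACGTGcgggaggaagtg
NOP2, which rose (chr12:6568242-6568271, minus strand): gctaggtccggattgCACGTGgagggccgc
EBNA1BP2, which rose (chr1:43172790-43172819, minus strand): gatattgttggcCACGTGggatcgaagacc
NOP14, which rose (chr4:2963374-2963403, minus strand): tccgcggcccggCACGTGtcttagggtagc
NAT10, which rose (chr11:34105602-34105631, plus strand): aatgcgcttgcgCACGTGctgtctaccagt
BYSL, which fell (chr6:41921515-41921544, plus strand): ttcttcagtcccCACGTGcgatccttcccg
NOP10, not called (chr15:34343289-34343318, minus strand): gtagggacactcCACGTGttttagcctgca
The motif began 5 bases before the start in RRP9 and 28 bases after it in BYSL. Thus a member that rose and one that fell both carry the motif close to the start.

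The values given below are rlog values, a regularised logarithm to base 2 that draws the libraries of a gene together where its counts are noisy. A difference between groups can therefore be smaller than the true log2 change. The members' median difference was 0.10 on this scale and 0.18 in the authors' deposited table. The gap was present at high level too: NPM1, the most abundant member, had 0.32 and 0.58, and GAR1, the least abundant, -0.14 and -0.30. No counts are given, the libraries' depth is unknown, and counting error could not be computed. Whether the scaling between libraries used genes or the spike-in RNA added by cell number is not stated, so it is unknown whether a difference is relative to other genes or per cell. Median rlog over the 14601 tested genes was 11.32 and 11.31 in the knockdown libraries and 11.32 in both control libraries. The targeted RNA, taken from background knowledge of the study to be the locus XLOC_005968 because no row is named ARIEL, had rlog values of 10.58 and 10.55 in the knockdown libraries, against 12.02 and 11.91 in the control libraries. The 13 T-cell markers examined were all expressed above the minimum used for testing, with a summed linear level of 301000 to 307000 in knockdown libraries and 317000 to 321000 in control libraries. Of these 13 markers 3 rose and 6 fell (limma), 23.1% and 46.2%, where 22.1% and 22.4% of all tested genes did. PTCRA differed by 1.37 ± 0.04, CD7 by 0.23 ± 0.03, TRAT1 by -0.73 ± 0.04 and CD3G by -0.30 ± 0.03 (SE), and their part in the members' differences was not tested. CD79A, better known from B cells, was also expressed (11.23 and 11.25 in knockdown libraries, 10.91 and 10.99 in control libraries), while 4 of the 6 B-cell markers, 4 of 6 myeloid, 4 of 6 epithelial or kidney and all 6 erythroid markers were under a mean of 10 on the linear scale.

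Of the 40 members, 23 rose, 3 fell and 14 were not called (limma, adjusted p under 0.05 over all tested genes). The members thus rose in 57.5% and fell in 7.5% of cases, and over all 14601 tested genes 22.1% rose and 22.4% fell (44.4% called in all). All 40 were abundant enough to be tested, with mean rlog values between 9.15 and 17.35. The median difference between knockdown and control libraries was 0.10 over the members and 0.00 over all tested genes. The rises were small, between 0.08 and 0.32 on the rlog scale, which is 1.06- to 1.25-fold. In such bulk libraries a change in the mixture of cells cannot be told apart from a change of RNA per cell. In the authors' deposited table the same genes were 1.10- to 1.49-fold higher, and 0 of the 40 changed by 1.5-fold or more there. Both knockdown libraries lay above both control libraries in 27 members and below both in 5, and the groups overlapped in 8. The groups lay apart in 70.7% of all tested genes (35.6% higher and 35.1% lower in knockdown libraries).

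**Figure D1:**
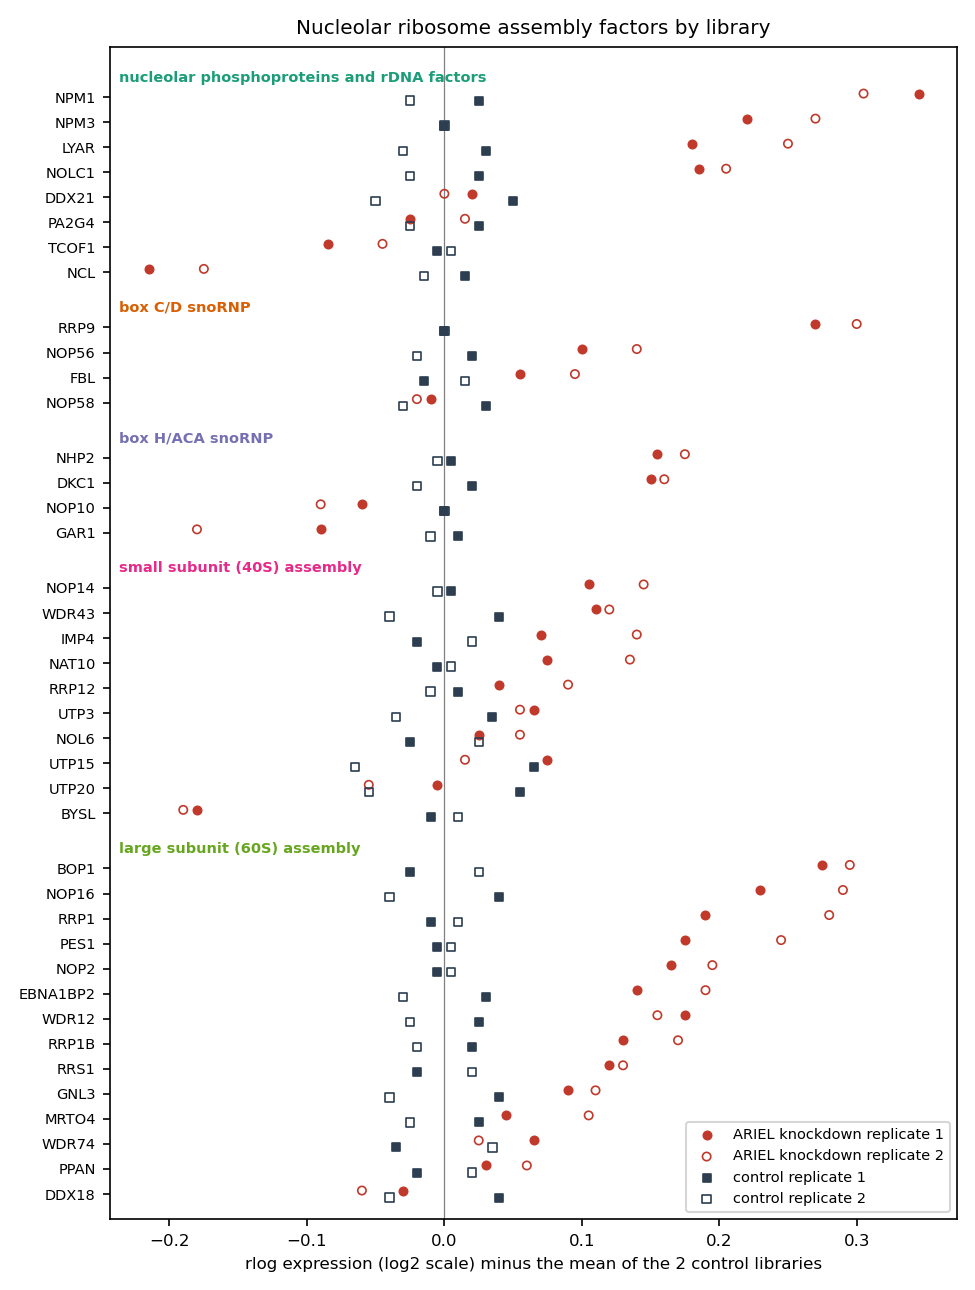
rlog expression of each member in the 4 libraries, as the difference from the mean of the 2 control libraries (x axis, log2 scale), with members in rows by role. Circles are knockdown libraries and squares control libraries, filled for replicate 1. The 2 circles lie right of both squares in 27 members and left of both in 5.

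The counts given for each role below stand beside the 22.1% of all tested genes that rose and the 22.4% that fell. Of the 8 multifunctional nucleolar proteins 4 rose, 1 fell and 3 were not called. NPM1, which had the largest rise of any member on the rlog scale, encodes nucleophosmin, an abundant chaperone of histones and ribosomal proteins in the outer layer of the nucleolus. NPM1 had rlog values of 17.53 and 17.49 in knockdown libraries, against 17.21 and 17.16 in control libraries, so every knockdown library was above every control library. The difference was 0.32 ± 0.04 (SE, n = 2 per group; limma, adjusted p = 3.38e-18), and in the authors' deposited table NPM1 was 1.49-fold higher. GENCODE 29 names 45 pseudogenes of NPM1, so reads may be split between near-identical copies and its value is uncertain. NPM1 is not alone in this: 8 members have named pseudogenes, and 5 are overlapped by a coding gene on the same strand. NPM3, a nucleoplasmin-family relative of NPM1, had 13.89 and 13.94 in knockdown libraries and 13.67 in both control libraries, a difference of 0.24 ± 0.03 (SE; limma, adjusted p = 6.06e-13). NOLC1, a phosphoprotein that escorts snoRNPs, had 15.58 and 15.60 in knockdown libraries, against 15.42 and 15.37 in control libraries, and LYAR, a nucleolar zinc-finger protein, had 13.35 and 13.42 against 13.20 and 13.14. Both rose, by 0.20 ± 0.03 and 0.22 ± 0.03 (SE).

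Nucleolin went the other way. NCL encodes this RNA-binding protein, which acts in rDNA transcription and early pre-rRNA processing. It had rlog values of 16.28 and 16.32 in knockdown libraries, against 16.51 and 16.48 in control libraries. The groups did not overlap, and the difference was -0.19 ± 0.03 (SE; limma, adjusted p = 6.30e-08), with NCL 1.27-fold lower in the authors' deposited table. The rlog difference between NPM1 and NCL within a library was therefore 1.25 and 1.17 in knockdown libraries, against 0.70 and 0.68 in control libraries. TCOF1, which encodes treacle, a scaffold of RNA polymerase I transcription, had 14.16 and 14.20 in knockdown libraries and 14.24 and 14.25 in control libraries; its groups lay apart but its difference of -0.06 ± 0.03 was not called (limma, adjusted p = 0.0832). DDX21, a helicase of the nucleolus, differed by 0.01 ± 0.03 and PA2G4, a proliferation-linked ribosome-binding protein, by 0.00 ± 0.03 (SE), each with overlapping groups.

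The box C/D proteins did not move as a block. Fibrillarin (FBL) is the methyltransferase of these particles, NOP56 and NOP58 form their scaffold, and RRP9 is particular to the U3 snoRNP, which takes part in cutting the pre-rRNA. RRP9 had rlog values of 13.07 and 13.10 in knockdown libraries, against 12.80 in both control libraries, a difference of 0.29 ± 0.03 (SE; limma, adjusted p = 4.66e-16). NOP56 had 15.73 and 15.77 in knockdown libraries, against 15.65 and 15.61 in control libraries, and rose by 0.12 ± 0.03. FBL had 13.36 and 13.40 in knockdown libraries, against 13.29 and 13.32 in control libraries, a rise of 0.08 ± 0.03 with the largest adjusted p of any called member (limma, adjusted p = 0.0395). NOP58, the partner of NOP56, had 14.65 and 14.64 in knockdown libraries, which lay between the 14.69 and 14.63 of the control libraries.

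Of the 4 box H/ACA proteins 2 rose, 1 fell and 1 was not called. Dyskerin (DKC1) is the pseudouridine synthase, and NHP2, NOP10 and GAR1 complete the particle, which also forms part of telomerase. DKC1 had rlog values of 14.32 and 14.33 in knockdown libraries, against 14.19 and 14.15 in control libraries, a difference of 0.15 ± 0.03 (SE; limma, adjusted p = 8.68e-06). NHP2 had 13.69 and 13.71 in knockdown libraries, against 13.54 and 13.53 in control libraries, a difference of 0.16 ± 0.03 (SE; limma, adjusted p = 3.29e-06). GAR1, the member with the lowest level here, had 9.13 and 9.04 in knockdown libraries, against 9.23 and 9.21 in control libraries, and fell by 0.14 ± 0.05 (SE; limma, adjusted p = 0.0150). That call was absent from the authors' deposited table, where the log2 fold change of GAR1 was -0.30 ± 0.14 (SE) and its adjusted p 0.0622. NOP10 had 12.80 and 12.77 in knockdown libraries and 12.86 in both control libraries, a difference of -0.08 ± 0.03 that was not called (limma, adjusted p = 0.0583). Both NOP10 and GAR1 thus had lower values in every knockdown library than in any control library, while DKC1 and NHP2 had higher ones. Over all tested genes 35.1% lay lower in this way and 35.6% higher, so such a gap is common with 2 libraries per group. The rlog difference between DKC1 and GAR1 within a library was 5.19 and 5.29 in knockdown libraries, against 4.96 and 4.94 in control libraries.

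Among the 10 factors of small subunit assembly 4 rose, 1 fell and 5 were not called, with a median difference of 0.06. NOP14, a component of the early 40S precursor, had rlog values of 13.92 and 13.96 in knockdown libraries, against 13.82 and 13.81 in control libraries, a difference of 0.13 ± 0.03 (SE). WDR43, the human counterpart of yeast Utp5, rose by 0.12 ± 0.03. IMP4, a U3-associated protein, and NAT10, which acetylates cytidines of the small subunit RNA, each rose by 0.10 ± 0.03 (SE). BYSL was the exception. It encodes bystin, needed for late maturation of the 40S precursor, and had 11.60 and 11.59 in knockdown libraries, against 11.77 and 11.79 in control libraries. The difference was -0.18 ± 0.04 (SE; limma, adjusted p = 1.01e-05), and BYSL was 1.27-fold lower in the authors' deposited table. RRP12, an export factor, UTP3, NOL6, UTP15 and UTP20, all parts of the early precursor or its maturation, differed by between -0.03 and 0.07 and were not called.

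Large subunit assembly had 10 of 14 members higher, 0 lower and 4 not called, with a median difference of 0.16. The 3 proteins of the PeBoW complex, which is required for maturation of the large subunit RNAs, rose together. BOP1 had rlog values of 11.95 and 11.97 in knockdown libraries, against 11.65 and 11.70 in control libraries, a difference of 0.29 ± 0.04 (SE; limma, adjusted p = 9.13e-13). PES1 had 14.71 and 14.78 in knockdown libraries, against 14.53 and 14.54 in control libraries, a difference of 0.21 ± 0.03 (SE; limma, adjusted p = 1.20e-09). WDR12, the third protein, had 13.95 and 13.93 in knockdown libraries, against 13.80 and 13.75 in control libraries, a difference of 0.16 ± 0.03 (SE; limma, adjusted p = 2.40e-06). All 3 lay higher in every knockdown library than in any control library, as did 35.6% of all tested genes.

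The other large subunit factors that rose covered several steps of the pathway. NOP16 had rlog values of 11.73 and 11.79 in knockdown libraries, against 11.54 and 11.46 in control libraries, a difference of 0.26 ± 0.04 (SE). RRP1 had 13.48 and 13.57 in knockdown libraries, against 13.28 and 13.30 in control libraries, a difference of 0.23 ± 0.03, and its paralogue RRP1B, on the same chromosome 21, rose by 0.15 ± 0.03 (SE). NOP2, a methyltransferase of the large subunit RNA, had 13.35 and 13.38 in knockdown libraries, against 13.18 and 13.19 in control libraries, a difference of 0.18 ± 0.03 (SE; limma, adjusted p = 3.45e-07). EBNA1BP2 rose by 0.17 ± 0.03, RRS1, which in yeast helps to bring in the 5S RNA particle, by 0.13 ± 0.04, and GNL3, the GTP-binding protein nucleostemin, by 0.10 ± 0.03 (SE). MRTO4, WDR74, PPAN and the helicase DDX18 differed by between -0.05 and 0.07 and were not called. MRTO4 came closest to the threshold (limma, adjusted p = 0.0515).

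**Figure D2:**
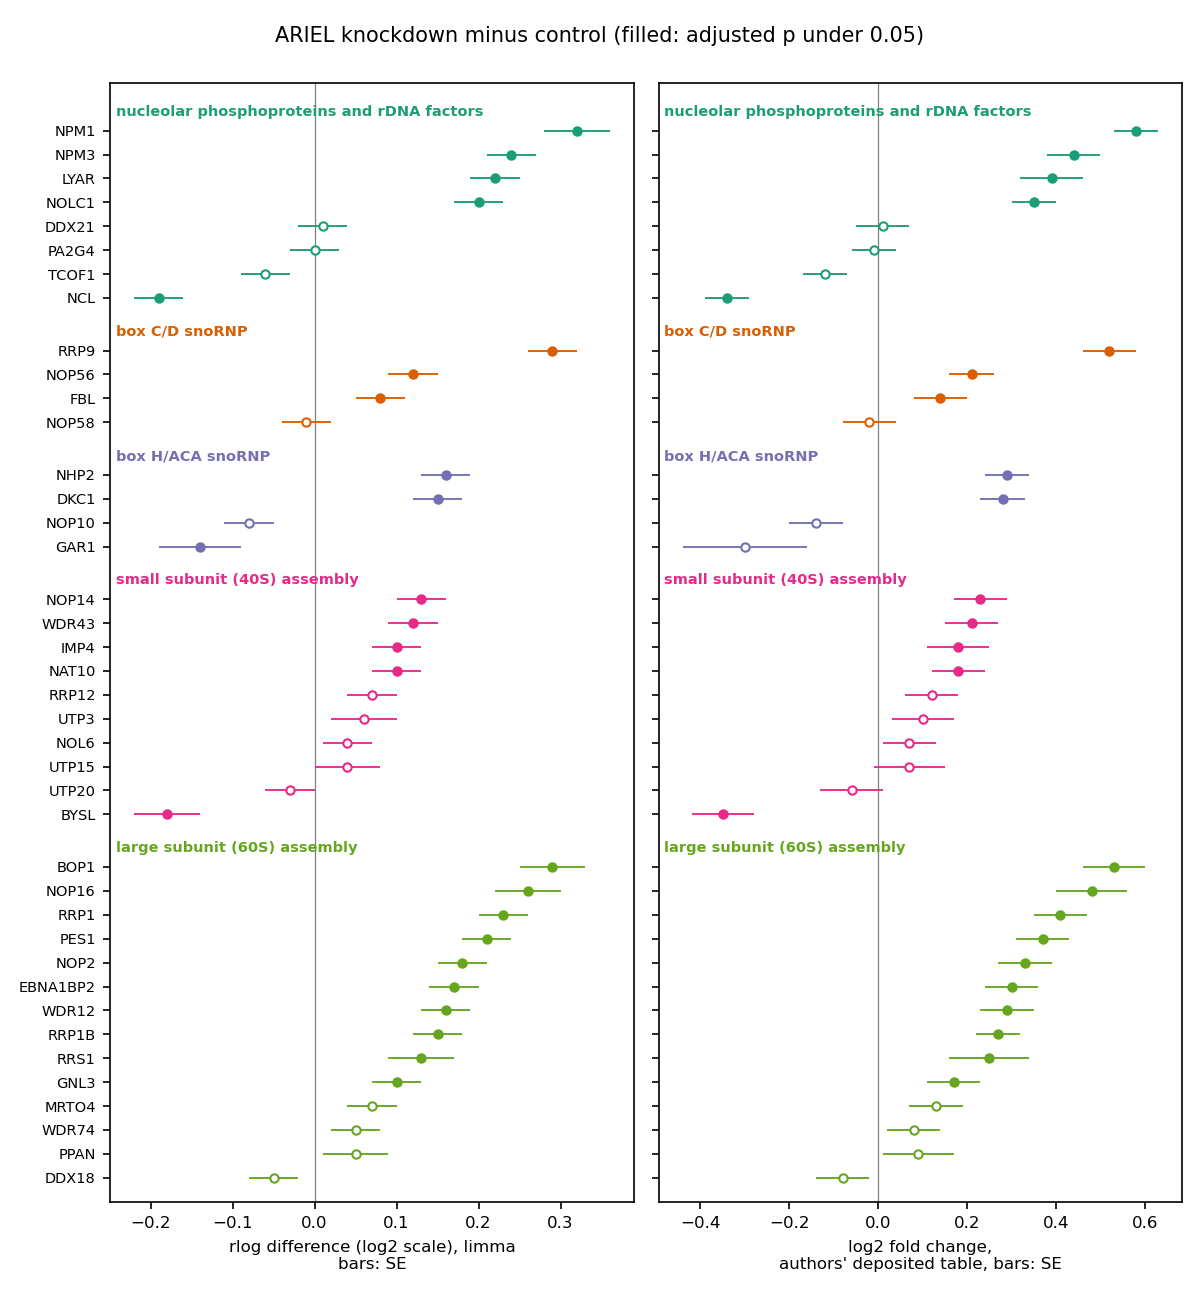
Difference between knockdown and control libraries for each member, as the rlog difference from limma (left, log2 scale) and as the log2 fold change of the authors' deposited table (right). Points are estimates, bars are SE, and filled points had an adjusted p under 0.05. The left axis spans smaller values than the right, and GAR1 is filled on the left only.

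The authors' deposited table and the fit to the rlog values differed in 1 call among the members: 25 were called in the same direction in both, GAR1 in the rlog fit only and none in the deposited table only. Of the 14551 genes to which the authors gave an adjusted p, 20.1% were higher and 19.3% lower.

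Members also differ in whether they carry snoRNA genes in their own gene bodies. Of the 39 members with an ID in GENCODE 29, 7 contain snoRNA genes on the same strand: NCL, NOP56, NOP58, DKC1, WDR43, GNL3 and PPAN. Of these 7, 4 rose and 1 fell, with a median difference of 0.10. Of the other 32, 18 rose and 2 fell, also with a median of 0.10. Over all tested genes 22.1% rose and 22.4% fell. The table lists protein-coding rows for these members, so the levels of the snoRNAs themselves were not analysed here.

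Other genes of the pathway were drawn from lists that hold no member. Over all tested genes 22.1% rose and 22.4% fell. Of 50 other small subunit factors 29 rose and 4 fell (58.0% and 8.0%), with a median difference of 0.09. RRP36 (0.24 ± 0.03, SE) and WDR46 (0.23 ± 0.03) had the largest rises, and LTV1, a late 40S factor (-0.18 ± 0.04), and WDR36 (-0.16 ± 0.03) the largest falls. Of 51 other large subunit factors 16 rose and 8 fell (31.4% and 15.7%, nearer the shares over all genes), with a median of 0.04. EIF6, which keeps free large subunits from joining small ones, rose by 0.34 ± 0.03 and RSL24D1 by 0.33 ± 0.03, while MAK16 differed by -0.51 ± 0.03 and RRP15 by -0.30 ± 0.04 (SE). MAK16 had rlog values of 13.00 and 12.97 in knockdown libraries, against 13.54 and 13.44 in control libraries. Among the members 10 of 14 large and 4 of 10 small subunit factors rose, while the wider lists had the smaller share of rises (31.4%) on the large subunit side; neither difference was tested.

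**Figure D3:**
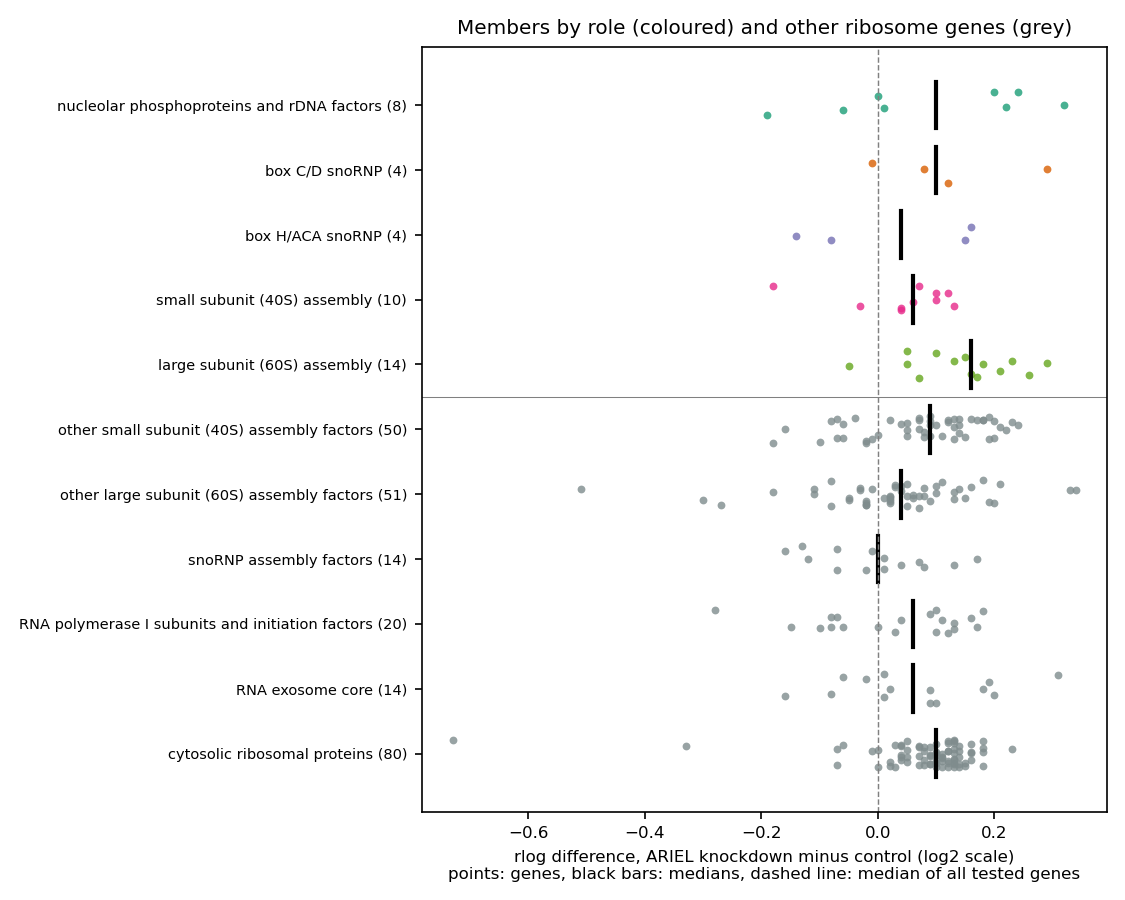
rlog difference between knockdown and control libraries (x axis, log2 scale) for the members by role (coloured) and for other ribosome genes (grey), with the number of genes in brackets. Each point is a gene, black bars are medians and the dashed line is the median of all tested genes, 0.00. The medians of the members' roles lie between 0.04 and 0.16, and those of the other lists between 0.00 and 0.10.

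Genes that deliver or use these factors are set beside the 22.1% of all tested genes that rose and the 22.4% that fell. Of 14 factors that assemble snoRNPs 3 rose and 3 fell (21.4% each, near those shares), with a median of 0.00. The largest differences were the ATPase RUVBL1 (0.17 ± 0.03) and PIH1D1 (0.13 ± 0.03) above and RPAP3 (-0.16 ± 0.04) and TGS1 (-0.13 ± 0.03, SE) below. Of 20 RNA polymerase I subunits and initiation factors 10 rose and 4 fell, with a median of 0.06. POLR2L rose by 0.18 ± 0.04 and POLR1C by 0.17 ± 0.04, while RRN3, the factor that makes the polymerase competent to start, had 13.07 and 13.09 in knockdown libraries, against 13.40 and 13.33 in control libraries, a difference of -0.28 ± 0.03 (SE). TAF1D of the same promoter machinery differed by -0.15 ± 0.04. Of 14 exosome genes 7 rose and 2 fell (median 0.06), with EXOSC4 at 0.31 ± 0.04, EXOSC5 at 0.20 ± 0.04, C1D at -0.16 ± 0.04 and DIS3 at -0.08 ± 0.03. The genes of cytosolic ribosomal proteins, 80 in number, included 52 rises and 2 falls and had a median of 0.10. The falls, in the stalk protein genes RPLP1 (-0.73 ± 0.03) and RPLP2 (-0.33 ± 0.03), were larger than any rise in that list, led by RPS28 (0.23 ± 0.03, SE).

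MYC itself had rlog values of 14.59 and 14.61 in knockdown libraries, against 14.48 and 14.45 in control libraries, and 7 of 11 genes of the MYC, MAX and MXD network rose while 1 fell, where 22.1% and 22.4% of all tested genes did. The rises included MXD4, a repressor in that network (0.46 ± 0.04), and MNT, another (0.15 ± 0.05), and the fall was MYCN (-0.23 ± 0.04, SE).

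A trend with base composition and the level of histone RNAs are set beside these results as descriptions. Over the 12719 tested genes with transcript properties, the rlog difference had a median of -0.08 in the lowest decile of transcript GC content and 0.08 in the highest. The 39 members with a matched ID had a median GC content of 51.3%, against 49.4% for those genes, and a range from 38.7% to 63.2%. BOP1, which rose, had no matched ID, so its rise could not be set against the trend. With the trend with GC content and length removed from each library, 22 of 39 members were higher and 5 lower, against 28.9% and 24.1% of all 12719 genes, and the median went to 0.08. The rises of FBL, IMP4 and RRS1 were then not called, DDX21, UTP3 and UTP15 were called higher and TCOF1 and NOP10 lower. NPM1 differed by 0.34 ± 0.02, WDR12 by 0.24 ± 0.02, NCL by -0.16 ± 0.02 and BYSL by -0.24 ± 0.03 (SE) without the trend. Other differences shrank: NHP2 differed by 0.09 without the trend and 0.16 with it, RRP9 by 0.21 and 0.29, NPM3 by 0.18 and 0.24, and NOP56 by 0.08 and 0.12. The median of the box H/ACA proteins was 0.00 without the trend and 0.04 with it. Replication-dependent histone genes, whose RNAs lack a poly(A) tail, rose in 17 of 24 cases (70.8%), where 22.1% of all tested genes did. The summed linear level of these histone genes was 1800000 to 1860000 in knockdown libraries and 1680000 to 1720000 in control libraries. What their rise reflects, and its part in the members' rises, was not tested. Over the 39 members, the difference had a Spearman's rho of 0.19 with GC content before the trend was removed and -0.17 after, given as a description of genes that share the same 4 libraries.

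**Figure D4:**
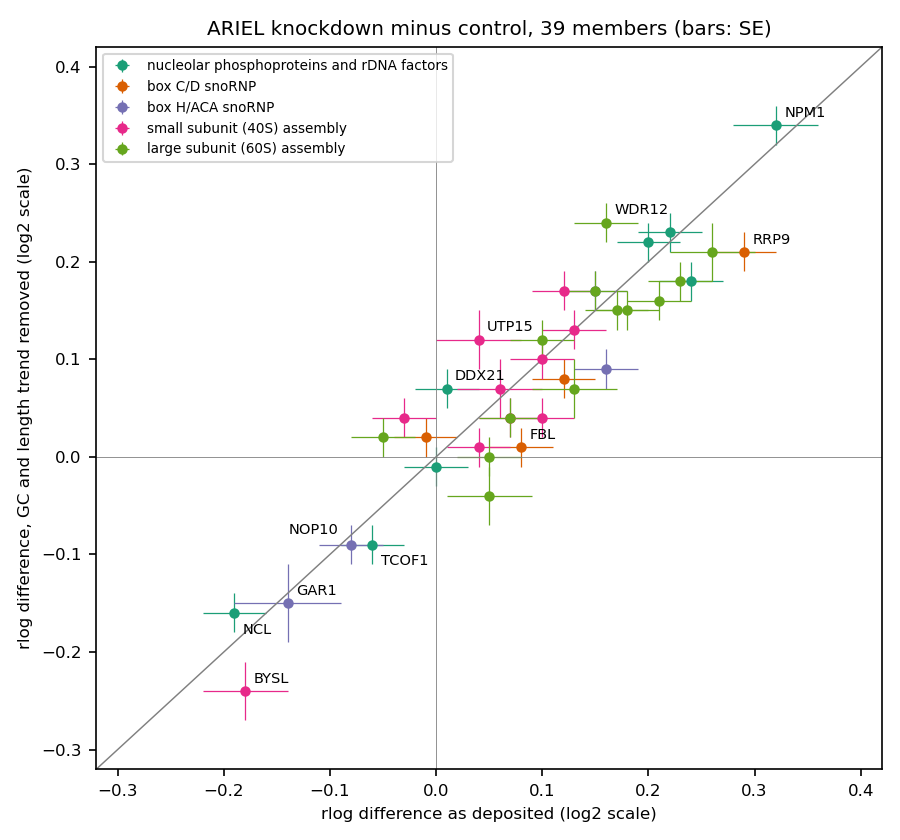
rlog difference between knockdown and control libraries for 39 members, from limma on the rlog values as they stand (x axis) and with the trend with GC content and length removed (y axis). Both axes are on the log2 scale, with SE bars and colours by role. Points on the diagonal did not move. Off the diagonal, NPM1 went to 0.34 with the trend removed, against 0.32 with it kept, and BYSL to -0.24, against -0.18.

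The calls rest on the spread that limma shares between genes of similar level. With each gene's own variance on the 4 libraries 0 of the 40 members were called, with adjusted p-values of the 26 called members between 0.0829 and 0.265 (limma), and 20 of the 40 members had an unadjusted p under 0.05, as did 31.2% of all tested genes. Each fit with 1 library left out has a lone library in a group, which is assumed to vary like the others. The members' median difference was 0.08 without ARIEL knockdown replicate 2 and 0.13 without ARIEL knockdown replicate 1, against 0.10 with all 4 libraries. The calls of FBL, NOP56, GAR1, NOP14, IMP4, NAT10, RRS1, GNL3 and WDR43 were not kept in every such fit. The like share over all called genes was not computed, so this loss is no result particular to the members.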

How the data were processed

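Per the labels' protocols, Jurkat cells were kept in 0.7 µg/ml puromycin for 36 h or more after infection, spike-in RNA was added in proportion to the cells counted, and the stranded libraries were sequenced as pairs of 100-base reads. STAR 2.5.2a, HTSeq 0.6.1, DESeq2 1.12.4 and the build hg19 appear in the submitters' processing notes with no roles; which annotation and filters were used is not given in the sources used here. The authors' file headers mark 1 rlog value (log2 scale) for each gene in each library. They also mark the deposited log2 fold change, its standard error, a test score, a p-value and an adjusted p. The table has no counts and 0 spike-in rows.

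The rlog values were tested as they stand, with no pseudocount, using limma 3.58.1 in R 4.3.3 (eBayes, spread modelled on level). Tested were the 14601 rows whose mean reached 10 on a linear scale, with Benjamini-Hochberg adjustment over these rows and a threshold of 0.05. Prior degrees of freedom came out infinite, so genes of like level share 1 spread, and the SE is too small for a gene that varies more. The fit was also run on simulated data whose noise was drawn from this shared spread, so that run could not test the spread itself. There, 21% of planted differences of 0.1 in size and 100% of those of 0.25 were called. Transcript GC content and length came from GENCODE 29 by gene ID (longest coding transcript), and each library's trend with both was removed by splines of 5 degrees of freedom each. Alternatives were filters, scalings, the spread, each library left out, the replicate block, trend removal and the deposited statistics. Members and lists were chosen with earlier results of these data known, so lists are described and not tested. All members are named; other lists contribute up to 2 of their largest called rises and falls, and some results are not reported here. MYC and the targeted RNA were named by rule too, while CD79A was added after its values were seen. Lists of snoRNA host genes and mitochondrially encoded genes were not analysed here.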

Additional observations from a re-analysis of the deposited data

How the results depend on the processing

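Under rescaling, under trend removal and in the authors' deposited table, no member's called direction was reversed. The other alternatives could not reverse one. Filters, the spread and the block leave a member's difference as it was. The groups of every called member lay apart, so leaving out 1 library keeps its sign. The main fit called 26 members and 6488 genes in all. With no filter 25 members and 5988 genes were called, with no trend on level 25 and 6337, and with quantile normalization 25 and 6192. The authors' deposited table gave 25 and 5728. A mean of at least 50 gave 27 and 6376, and libraries centred on their median 27 and 6504. Removing the GC and length trend gave 27 and 6741, and the replicate number as a block 30 and 7426. The call lost was FBL under the first 3 of these settings and GAR1 in the deposited table. The counts with the trend removed are out of 39 members, since BOP1 had no matched ID, and out of 12719 genes. Members lower went to 5, against 3, with the replicate block, with the trend removed, and with both together. Genes lower in all went to 3704, 3062 and 3122 under these settings, against 3264. The members' median went to 0.08 with the trend removed, with or without the block, and to 0.18 in the authors' deposited table, whose fold changes are not on the rlog scale. With each gene's own variance 0 genes were called in all, 0 higher and 0 lower, with 4561 at an unadjusted p under 0.05, and likewise 0 members. Leaving out 1 library gave 4225 to 6188 genes called, 2004 to 3061 higher and 2221 to 3127 lower; over the members it gave 18 to 25 called, 16 to 22 higher, 2 to 4 lower and a median of 0.08 to 0.13. The lowest counts of genes were those without ARIEL knockdown replicate 2, where a lone knockdown library is assumed to vary like the others. Deviations of same-numbered libraries correlated at 0.198 over genes, but with 2 pairs the numbers are not known to pair samples.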
